A study of Mus musculus with 65 samples.

Results

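Rab GTPases are small proteins that mark the membranes of the secretory and endocytic pathways. The genes described here are the entries of the count table whose symbol is Rab followed by a number and at most 1 letter and 1 further digit, which took in 59 of 55292 genes. The rule uses no measured value, although earlier results of these data were known when it was chosen. The data are transcript counts from 65 single cells of the mouse cochlea at postnatal day 10, each picked by hand as an outer hair cell (OHC), the cochlear cell type whose length changes, driven by the protein prestin, amplify sound. The 48 WT cells came from mice with the genotype Slc26a5 FlpO/+; Rosa26 FSF-H2BEGFP/+. The 17 CKO cells came from mice with the genotype Atoh1 Cre/+; Casz1 flox/flox; Slc26a5 FlpO/+; Rosa26 FSF-H2BEGFP/+, in which the zinc finger transcription factor Casz1 is a target of Cre in the hair cell lineage. In both groups FlpO under control of Slc26a5, the prestin gene, switched on a green fluorescent protein in the nucleus. The WT genotype lists neither Cre nor floxed alleles, so Cre and the loss of Casz1 cannot be told apart, and CKO is used below as the label of the group.

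A Rab protein cycles between a GTP-bound form that recruits effectors to a membrane and a GDP-bound form that can be taken off it. Guanine nucleotide exchange factors (GEFs) load GTP, GTPase-activating proteins (GAPs) speed its hydrolysis, GDP dissociation inhibitors (GDIs) keep the inactive form in the cytosol, and prenyl groups on cysteines at the end of the protein hold it in the membrane. Different Rab proteins serve different steps, from the endoplasmic reticulum (ER) through the Golgi to the surface, and from early endosomes to recycling endosomes or lysosomes. A hair cell uses these routes to supply its apical bundle, its lateral membrane and its basal synapses.

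Of the 59 genes, 55 had a count in some cell, and 35 were measured, which here means at least 5 CPM in the group with the higher value. CPM is the count of a gene summed over the cells of a group, per 1000000 counts of that group. The highest levels per length of transcript belonged to Rab11a of the recycling endosome, Rab19 and Rab2a of the Golgi, Rab3a of the synaptic vesicle and Rab1a of the ER to Golgi step. These 5 genes held 51.6% of the summed Rab level in CPM per kb of exon in WT cells and 54.2% in CKO cells.

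The coding sequences of these genes carry the parts of the protein that the cycle needs, and a stretch of 30 bases around the catalytic glutamine of the switch II region is shown for the 5 most abundant members and for the members without a glutamine codon there. Capitals mark the codon at the place of that glutamine. Sequences run 5′ to 3′ on the coding strand and are those of GENCODE release M21 on GRCm38 (mm10).
Rab11a: tgggacacagcagggCAGgagcggtacagg
Rab19: tgggacacggcaggcCAGgagcgcttccgt
Rab2a: tgggatacagcagggCAGgagtcctttcgt
Rab3a: tgggacacagcagggCAAgagcggtaccgc
Rab1a: tgggacacagcaggcCAGgaaagatttcga
Rab25: tgggacacggccggcCTGgagagatacaga
Rab24: tgggacacagcaggtTCCgagcgctacgaa
Rab20: tgggacaccgcagggCGGgagcagtttcat
The window was read for 57 of the 59 genes. It holds a glutamine codon in 54 of them, and a leucine codon in Rab25, a serine codon in Rab24 and an arginine codon in Rab20. Rab25 and Rab24 were among the measured genes, while Rab20 had no count in any cell.

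The last 30 coding bases, without the stop codon, are shown for members that differ in the number of cysteine codons available for prenylation. Capitals mark the cysteine codons.
Rab11a: aagccaaaggtgcagTGCTGTcagaacatc
Rab3a: caggcgccacctcatcaggatTGTgccTGC
Rab5a: cagccagccagaagccagTGTTGTagtaac
Rab15: ccagcaaactcttcaaagaccTGCtggTGC
Rab13: gacaagaagaagaacaagTGCttgttaggc
Rab8a: aggaccagcttcttccggTGCagtctcctg
Rab28: cctcctcggagctccatgTGTgcagtgcag
Of 57 genes read, 49 hold 2 cysteines among the last 5 codons and 8 hold 1. The 8 are Rab8a, Rab8b, Rab13, Rab23, Rab28, Rab38, Rab40b and Rab40c, of which Rab38 and Rab40b were not measured.

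Depth was similar in both groups. Totals per cell lay between 7458126 and 17107710 counts in WT cells and between 8239671 and 15320549 in CKO cells. OHC markers were abundant in both: Ocm stood at 36667 CPM in WT and 49172 in CKO, and Slc26a5 at 931 and 1175 CPM. Markers of other cell types were uneven. Per cell, the 4 inner hair cell markers summed to 0 to 1036 CPM in WT (median 94.6) and 0 to 307 CPM in CKO (median 79.3), mostly from Otof (170 and 81.6 CPM), with Slc17a8 at 12.1 and 17.1 CPM and Tbx2 at 0.0018 and 0.025 CPM. The 6 neuron markers summed to 98.9 to 1433 CPM in WT (median 463) and 135 to 1176 CPM in CKO (median 519). The highest of them were Map2 (243 and 317 CPM) and Snap25 (186 and 171 CPM). Nefl and Nefm were also measured, at lower levels. The remaining members were nearly absent: Tubb3 had 3 counts in all WT cells and 4 in all CKO cells, and Nefh 1 and 0. The 6 mesenchyme markers summed to 0 to 700 CPM (median 21.1) and 0 to 375 CPM (median 0.777), and the medians of the glia, macrophage, endothelium and erythroid lists were 0 in both groups. Their part in the Rab values was not tested. Casz1 itself, counted over the whole gene, stood at 53.3 CPM in WT (lowest cell 0, median 31.98, highest 182) and 46.2 CPM in CKO (0, 41.7, 154). Which exons are floxed is not stated in the labels, so this count does not check the deletion. The labels name no animal, and all comparisons are therefore between 1 sample and 1 sample, without a test. Cells with the Xist pattern, defined as 10 or more Xist counts with a sum below 10 for the Y-linked genes Eif2s3y, Kdm5d, Uty and Ddx3y, numbered 9 of 48 in WT and 15 of 17 in CKO. The WT cells fall into runs by cell number (1 to 11, 12 to 45 and 46 to 48) that had differed in a mitochondrial transcript in an earlier reading of these data. The labels name no batch. The protocol text that all samples share mentions inner hair cells and induced OHCs, whereas titles and design name OHCs.

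**Figure D1:**
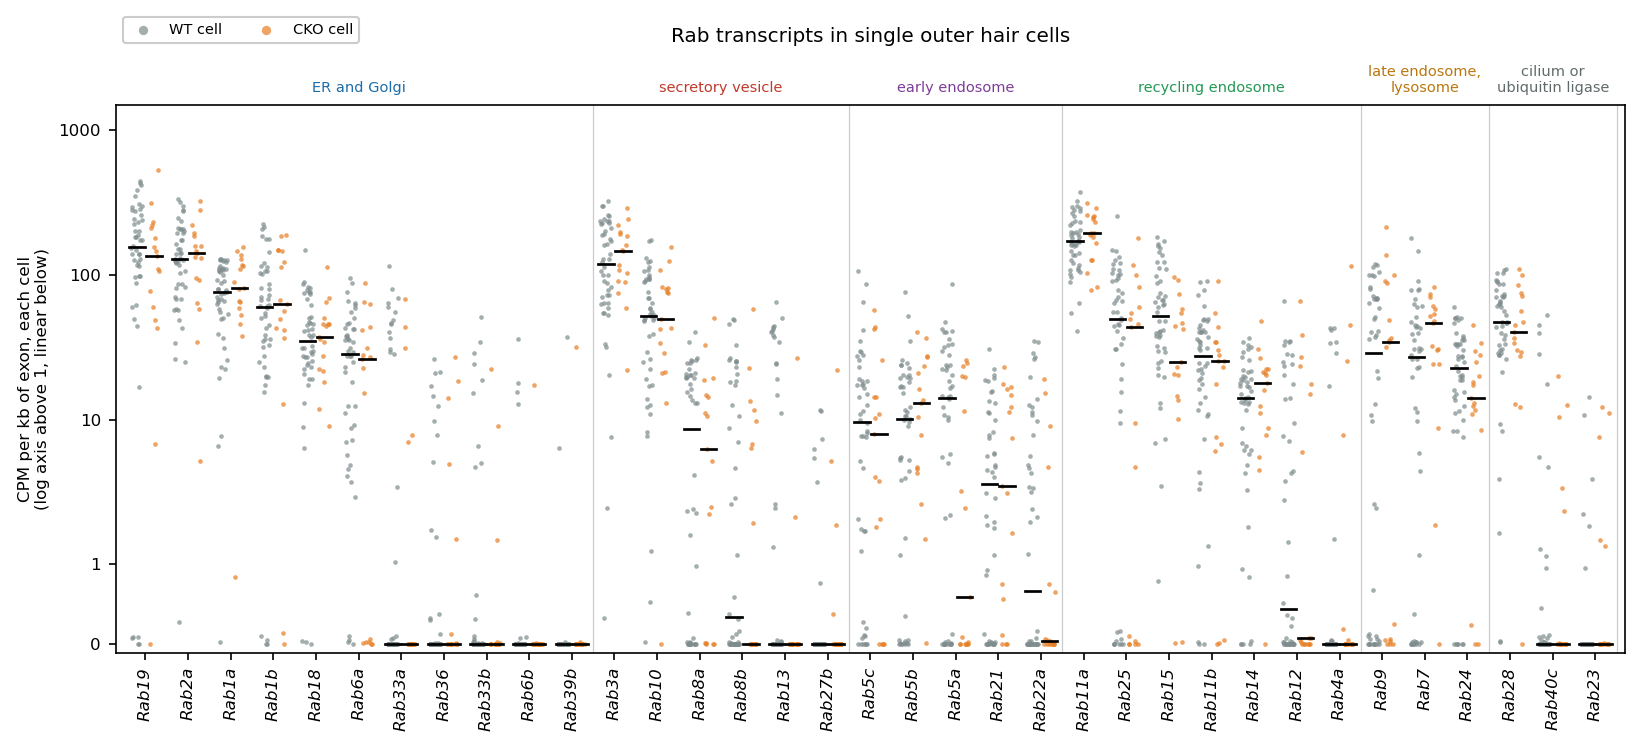
Level of each measured Rab gene in every cell, as CPM per kb of exon (log axis above 1, linear below), by route and in order of level within a route. Grey points are the 48 WT cells, orange points the 17 CKO cells, and black bars the median of each group. Rab11a has no cell near 0, while genes such as Rab13 and Rab4a have a median of 0 in both groups.

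Each OHC expressed many Rab genes at the same time. A WT cell held a count of 19 to 36 Rab genes (median 27), and a CKO cell of 21 to 32 (median 26). Only Rab11a, Rab3a, Rab15, Rab2a and Rab1a had a count in every one of the 65 cells, and 26 genes had one in at least 50% of the cells. All Rab genes together took 2274 to 5593 CPM per WT cell (median 4255) and 3022 to 5137 CPM per CKO cell (median 4104). The groups overlapped over most of that range.

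By route, the ER and Golgi members held 41.04% of the Rab level in CPM per kb of exon in WT and 41.3% in CKO. Recycling endosome members held 26.8% and 25.8%, and members of the secretory vesicle and plasma membrane route 16.7% and 17.4%. Late endosome and lysosome members held 7.03% and 8.12%, early endosome members 4.15% and 3.47%, and the cilium and ubiquitin ligase members 4.30% and 3.93%. The order of the routes was the same in both groups.

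In the ER and Golgi route, Rab19 had the highest level, at a mean over the 2 groups of 161 CPM per kb of exon. Rab19 is a Golgi-associated Rab of epithelial cells. Its value was 0 in the lowest WT cell, 246 CPM in the median cell and 700 CPM in the highest, against 0, 212 and 832 CPM in CKO cells. The ranges overlapped, and 1 CKO cell lay above every WT cell. Rab19 was uneven among the WT runs, with 120 CPM in cells 1 to 11, 325 CPM in cells 12 to 45 and 324 CPM in cells 46 to 48. CKO cells, at 241 CPM, lay 1.00 above the first run and 0.43 below the other two on the log2 scale.

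Rab2a, which acts between Golgi and ER, had 142 CPM per kb of exon. Its WT cells ranged from 0.584 to 720 CPM (median 273) and its CKO cells from 11.003 to 695 CPM (median 301). Its paralog Rab2b had 4.75 CPM in WT and 1.42 CPM in CKO, and Rab2a made up 99.2% and 99.8% of the pair in CPM per kb. Rab1a and Rab1b, which drive traffic from ER to Golgi, were near equal. Rab1a took 51.5% of their sum in CPM per kb in WT and 51.2% in CKO, and 46 of 48 WT cells and 16 of 17 CKO cells had counts of both. Rab1a ranged from 0.135 to 494 CPM in WT cells (median 289) and from 3.19 to 595 CPM in CKO cells (median 309).

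Rab18, found on the ER and on lipid droplets, had 286 CPM in WT and 274 CPM in CKO, with WT cells from 0 to 1014 CPM (median 238) and CKO cells from 62.2 to 777 CPM (median 254). Rab6a, which serves retrograde traffic to and through the Golgi, had 115 CPM and 98.3 CPM, and made up 94.0% and 96.0% of the Rab6 pair in CPM per kb. Exons of Rab6a overlap those of Mrpl48 on the other strand, which itself had 111 and 79.5 CPM. No source used here gives the strand setting of the counting, so reads of such pairs cannot be told apart. The same holds, among other pairs, for Rab3a with Mpv17l2 (76.3 and 60.5 CPM), Rab24 with Prelid1 (122 and 116 CPM) and Rab2b with Tox4 (38.03 and 58.3 CPM).

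The other measured members of this route came from few cells. Rab33a and Rab33b, Golgi Rabs linked to autophagy, had counts in 19 and 17 of 48 WT cells and in 5 and 5 of 17 CKO cells. Rab36 had counts in 18 and 7 cells, Rab6b in 7 and 2, and Rab39b in 3 and 2.

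In the secretory route, Rab3a led with 141 CPM per kb of exon. Rab3a sits on synaptic vesicles and acts in their release. Its WT cells ranged from 0.737 to 720 CPM (median 264) and its CKO cells from 49.4 to 650 CPM (median 325). The groups overlapped, and WT cell 23 had the lowest value, at 0.737 CPM. Rab3a made up 99.3% of the Rab3 subfamily in CPM per kb in WT and 98.8% in CKO, and was the highest member in all 65 cells. Rab3b had counts in 6 WT and 4 CKO cells, Rab3d in 4 and 1, and Rab3c in 2 and 0, with 1036 of the 1037 Rab3c counts in WT cell 11.

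Rab27a and Rab27b, the Rabs of secretory granules and lysosome-related organelles, were rare. Rab27a had 1 count in 1 WT cell. Rab27b had counts in 7 of 48 WT and 4 of 17 CKO cells. Rab26 and Rab37, also of secretory granules, had 1100 counts in all and 3 counts in all. Of the Rab26 counts, 1073 came from WT cell 27.

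Rab10, which carries vesicles to the plasma membrane, had 59.6 CPM per kb of exon, with 207 CPM in WT (cells from 0.117 to 613, median 184) and 212 CPM in CKO (0 to 550, median 175). Rab8a and Rab8b, which act in delivery to the surface and the cilium, shared their subfamily. Rab8a held 54.0% of it in CPM per kb in WT and 63.8% in CKO. It was the higher of the pair in 26 WT and 11 CKO cells, and Rab8b in 19 and 3. Rab8b had 46.9 CPM in WT and 32.5 CPM in CKO.

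Early endosome members were expressed at lower levels. Rab5a, Rab5b and Rab5c, which drive the fusion of early endosomes, had means of 12.3, 13.8 and 13.9 CPM per kb of exon. All cells had a count of at least 1 of the 3. Rab21, which carries integrins from the surface, had 30.1 CPM in WT and 38.4 CPM in CKO. Rab22a had 44.9 and 22.3 CPM. Rab31 had 705 counts in WT cell 30 and 2 in 1 CKO cell, and Rab17 and Rab20 had no count in any cell. For a gene without a count, the exact Poisson interval reaches 0.0067 CPM in WT and 0.0185 CPM in CKO.

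**Figure D2:**
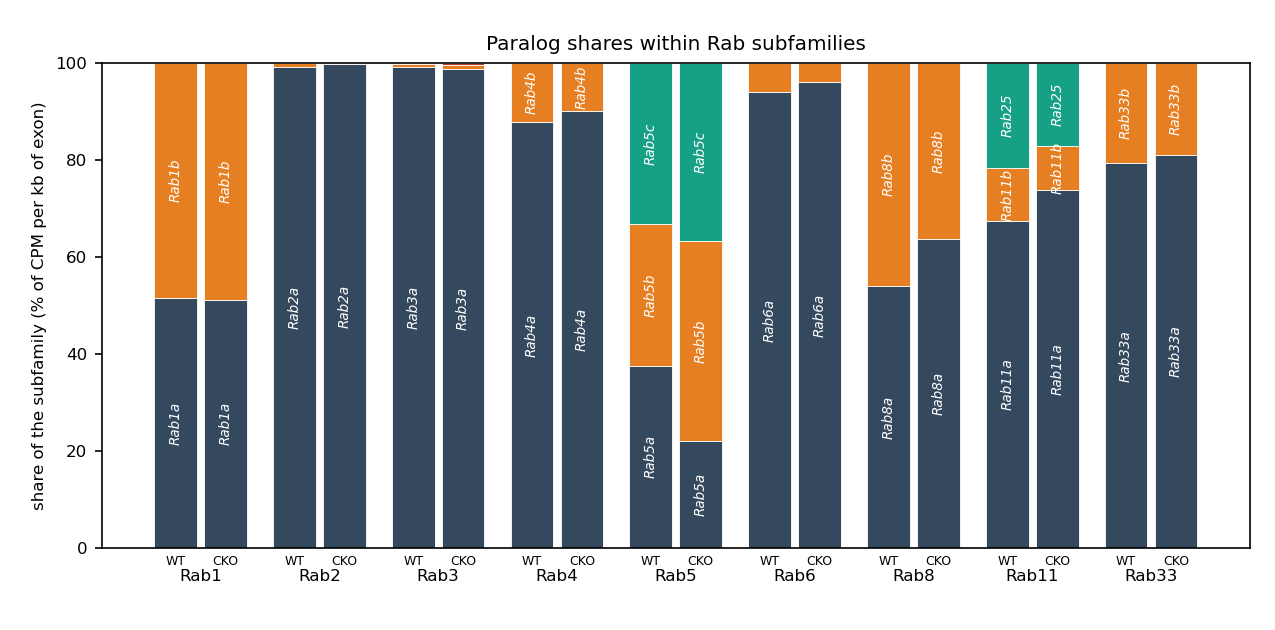
Share of each paralog in the summed CPM per kb of exon of its subfamily, in percent, for WT and CKO cells. Rab2, Rab3 and Rab6 are each held by 1 gene at over 90%, Rab1 is evenly split, and the Rab5a segment is 37.6% in WT and 22.2% in CKO.

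Recycling endosome members included the most abundant Rab transcript of OHCs. Rab11a, the Rab of the slow recycling route, had a mean of 189 CPM per kb of exon and lies on mm10 chromosome 9 from 64715299 to 64737758 on the minus strand. Its WT cells ranged from 122 to 1125 CPM (median 511) and its CKO cells from 236 to 938 CPM (median 583). No cell of either group fell below 122 CPM, and the CKO range lay inside the WT range. Rab11a made up 67.4% of the Rab11 subfamily in CPM per kb in WT and 73.9% in CKO. Rab25, the epithelial member whose window above holds a leucine codon, made up 21.6% and 17.1%, and Rab11b 10.9% and 9.01%. All 3 genes had counts in 41 of 48 WT cells and 13 of 17 CKO cells.

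Rab15, a recycling endosome Rab that is abundant in neurons, had 51.9 CPM per kb of exon. Rab14, which links the Golgi with endosomes, had 198 CPM in WT and 243 CPM in CKO, from 0 to 502 CPM (median 193) and from 0 to 658 CPM (median 244) per cell. Rab12 had 27.4 and 30.9 CPM. Rab4a of the fast recycling route had 9.36 and 19.5 CPM. Its paralog Rab4b had counts in 36 of 48 WT and 9 of 17 CKO cells but only 1.46 and 2.40 CPM, so that many cells held a few counts of it.

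Among late endosome and lysosome members, Rab9, which returns cargo from late endosomes to the Golgi, had 43.8 CPM per kb of exon. Its WT cells ranged from 0 to 210 CPM (median 50.4) and its CKO cells from 0 to 373 CPM (median 59.8). Rab7, which directs fusion of late endosomes with lysosomes, had 37.3 CPM per kb. Its WT cells ranged from 0 to 468 CPM (median 70.3) and its CKO cells from 0 to 217 CPM (median 122). Rab24, an atypical Rab linked to autophagy, had 47.8 CPM in WT and 33.3 CPM in CKO. Rab7b had 2 counts in all, and Rab9b had none.

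The Rabs of lysosome-related organelles, Rab29, Rab32 and Rab38, were absent from nearly all cells. WT cell 6 held all 964 counts of Rab29 and 1065 of the 1067 counts of Rab38. It also held 112 counts of Rab39. In this cell the summed markers stood at 58153 CPM for OHCs, 599.85 for neurons, 96.02 for inner hair cells, 35.61 for endothelium, which was the highest of any WT cell, 32.87 for supporting cells and 0.38 for melanocytes. Their part in these counts was not tested.

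Of the members outside a single route, Rab28, a Rab of cilia and photoreceptors, stood out by level. It had 50.2 CPM per kb of exon, with WT cells from 0.119 to 500 CPM (median 215) and CKO cells from 0 to 495 CPM (median 183). Only CKO cell 8 had no count of it. Rab40c, a subunit of a ubiquitin ligase, had 12.6 CPM in WT and 9.35 CPM in CKO, Rab40b had 2.23 and 0 CPM, and Rab42 had no count.

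**Figure D3:**
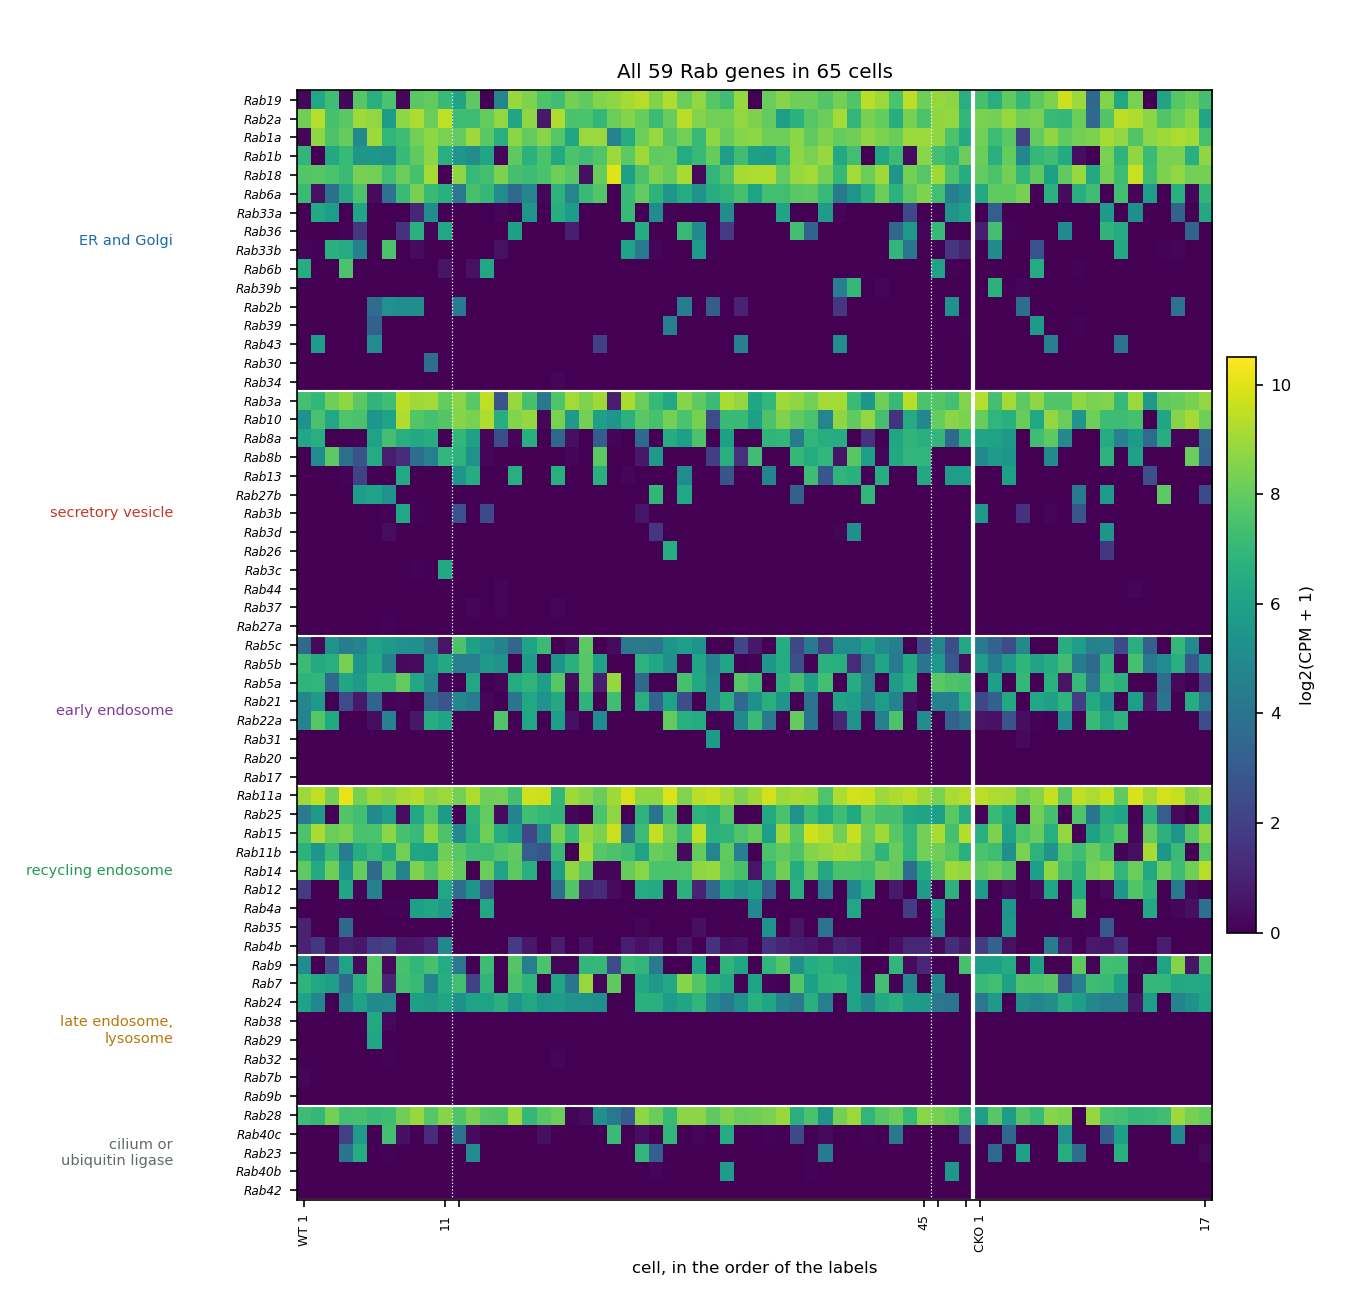
All 59 Rab genes (vertical) in the 65 cells (horizontal, in the order of the labels), coloured by log2(CPM + 1). The thick white line parts WT from CKO cells and dotted lines part the WT runs 1 to 11, 12 to 45 and 46 to 48. Rab11a is bright in every cell, Rab2a and Rab1a are bright in all but a few, and Rab29 and Rab38 light up in WT cell 6.

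Between genotypes, the measured Rab genes went in both directions in near equal numbers. Of the 35 measured genes, 17 were higher and 18 lower in CKO, beside 50.4% higher and 49.6% lower over the 10842 measured genes of the table. The median log2 ratio of CKO over WT was -0.06 over the Rab genes and 0.0092 over all measured genes. At least 2-fold higher in CKO were 3 genes, Rab23, Rab4a and Rab27b, where 15.1% of all measured genes were. At least 2-fold lower were 4, Rab13, Rab5a, Rab33b and Rab22a, where 14.5% were. Together these 7 are 20.0% of the measured Rab genes, beside 29.5% of all measured genes. These shares are not for like levels, as 14 of the 35 Rab genes reached 100 CPM, against 2205 of the 10842 genes. Rab13 and Rab39b reached 5 CPM in 1 group only.

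The ratios of 2-fold and more were at low levels. Of the 14 Rab genes that reached 100 CPM in one of the groups, 0 were 2-fold apart, where 6.3% of all genes at that level were. Between 50 and 100 CPM it was 1 of 5 (15.7% of all genes), between 20 and 50 CPM 3 of 9 (28.1%), and between 5 and 20 CPM 3 of 7 (51.8%). The cells of the groups overlapped for every measured Rab gene. For how many of all measured genes they did so was not computed. In pairs of 1 CKO and 1 WT cell, of which there are 816, the CKO cell was higher in 33.2% (Rab15) to 62.9% (Rab7), with ties counted as 0.5. No Rab gene reached 75% of pairs in either direction, as 0.756% of all measured genes did for CKO and 0.775% for WT.

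Rab15 was the abundant Rab gene furthest apart between the genotypes. It lies on mm10 chromosome 12 from 76797960 to 76822908 on the minus strand. WT cells ranged from 3.66 to 843 CPM (median 240), and CKO cells from 0.0810 to 449 CPM (median 116). The ranges overlapped, but 12 of the 48 WT cells lay above every CKO cell, and CKO cells 8 and 12 had 0.081 and 0.119 CPM. Summed, Rab15 had 307 CPM in WT and 171 CPM in CKO, a log2 ratio of -0.84 (95% counting interval -0.86 to -0.83). It passed 2-fold by the median of per-cell CPM (-1.05) and without CKO cell 7 (-1.01). Against the WT runs alone the ratio was -0.70, -0.83 and -1.41, and among cells with the Xist pattern -0.78.

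Rab5a lies on mm10 chromosome 17 from 53479234 to 53507680 on the plus strand. WT cells ranged from 0 to 455 CPM (median 74.3) and CKO cells from 0 to 135 CPM (median 3.13). A count of Rab5a was found in 79.2% of WT cells (exact binomial interval 65.01% to 89.5%) and 64.7% of CKO cells (38.3% to 85.8%). Summed, it had 88.1 CPM in WT and 41.6 CPM in CKO, a log2 ratio of -1.08 (-1.12 to -1.05). The ratio was -1.10, -0.88 and -2.23 against the 3 WT runs and -0.90 among Xist-pattern cells. Without WT cell 23 or any one of CKO cells 1, 3, 5 and 7 it fell short of 2-fold, and over all single omissions it lay between -1.31 and -0.97. Exons of Rab5a overlap those of Pp2d1 on the other strand, which had 4.45 CPM in WT and 0.771 CPM in CKO. The part of Pp2d1 in the Rab5a ratio was not tested.

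The other Rab5 paralogs differed less, Rab5c in the same direction as Rab5a and Rab5b in the other. Rab5b had 54.4 CPM in WT and 61.5 CPM in CKO (log2 ratio 0.18), and Rab5c 32.4 and 28.7 CPM (-0.18). In CPM per kb, Rab5a therefore made up 37.6% of the subfamily in WT and 22.2% in CKO, Rab5b 29.1% and 41.1%, and Rab5c 33.2% and 36.7%. Rab5a was the highest of the 3 in 17 of 48 WT cells and 2 of 17 CKO cells. With the length of the longest transcript in place of all exons these became 24 and 6 cells, and the share of Rab5a 44.8% and 27.5%.

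Rab13, which acts in delivery of junction proteins to the surface, had the ratio furthest from 0. It had counts in 21 of 48 WT cells (43.8%, interval 29.5% to 58.8%) and in 2 of 17 CKO cells (11.8%, 1.46% to 36.4%). The highest WT cell had 150 CPM and the median of both groups was 0. The 2 CKO cells were cell 3 with 61.4 CPM and cell 13 with 4.86 CPM. Summed, Rab13 had 24.5 CPM in WT and 4.10 CPM in CKO, a log2 ratio of -2.58 (-2.68 to -2.48). Leaving out any single cell moved it between -6.84, without CKO cell 3, and -2.40, and it stayed beyond 2-fold. Against WT cells 1 to 11 alone it was -1.03, with 8.38 CPM in those cells. That value rested on WT cell 8, at 85.7 CPM, as no other cell of that run was above 3.04 CPM. The summed level of supporting cell markers was also lower in CKO, at 0 to 402 CPM per WT cell (median 18.7) and 0 to 183 CPM per CKO cell (median 0.551). Of the 10 markers 3 were measured, and they did not go one way: Fgfr3 had 40.7 and 12.2 CPM, Gjb6 10.2 and 1.301 CPM, and Gjb2 4.46 and 7.98 CPM. Of the others, Sox2 had 0.290 and 0 CPM, Sox10 0.559 and 2.74 CPM, and Cd44 no count. Their part in the Rab13 difference was not tested.

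The remaining members beyond 2-fold rested on few cells. Rab22a had a median of 4.81 CPM in WT and 0.319 CPM in CKO cells, with highest cells of 252 and 137 CPM. Its log2 ratio was -1.01 (-1.06 to -0.97), and leaving out one of 25 cells singly ended the 2-fold difference (range -1.60 to -0.85, the lowest without CKO cell 9 and the highest without WT cell 2). Rab33b had a highest cell of 181 CPM in WT and 79.5 CPM in CKO and a log2 ratio of -1.03 (-1.11 to -0.95). WT cell 7 held 21.2% of its counts. Without that cell the ratio was -0.64, without CKO cell 11 it was -2.68, and 22 cells ended the 2-fold difference when left out singly.

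Among the genes higher in CKO, Rab4a had 9.36 CPM in WT and 19.5 CPM in CKO, a log2 ratio of 1.06 (1.00 to 1.12). CKO cell 8 alone, at 202 CPM, held 27.7% of all its counts, and without it the ratio was -0.33. CKO cells 3 and 13 also ended the 2-fold difference when left out. Rab27b had 10.7 and 22.8 CPM, a log2 ratio of 1.09 (1.03 to 1.15). CKO cell 14, at 234 CPM, held 34.4% of its counts, the ratio without it was -1.03, and leaving out CKO cell 10 ended the 2-fold difference. Rab23, a cilium Rab that restrains hedgehog signalling, had counts in 8 of 48 WT and 6 of 17 CKO cells and 6.33 and 16.6 CPM. Its log2 ratio was 1.39 (1.32 to 1.46), and 0.77 without CKO cell 11. CKO cell 7 also ended the 2-fold difference.

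**Figure D4:**
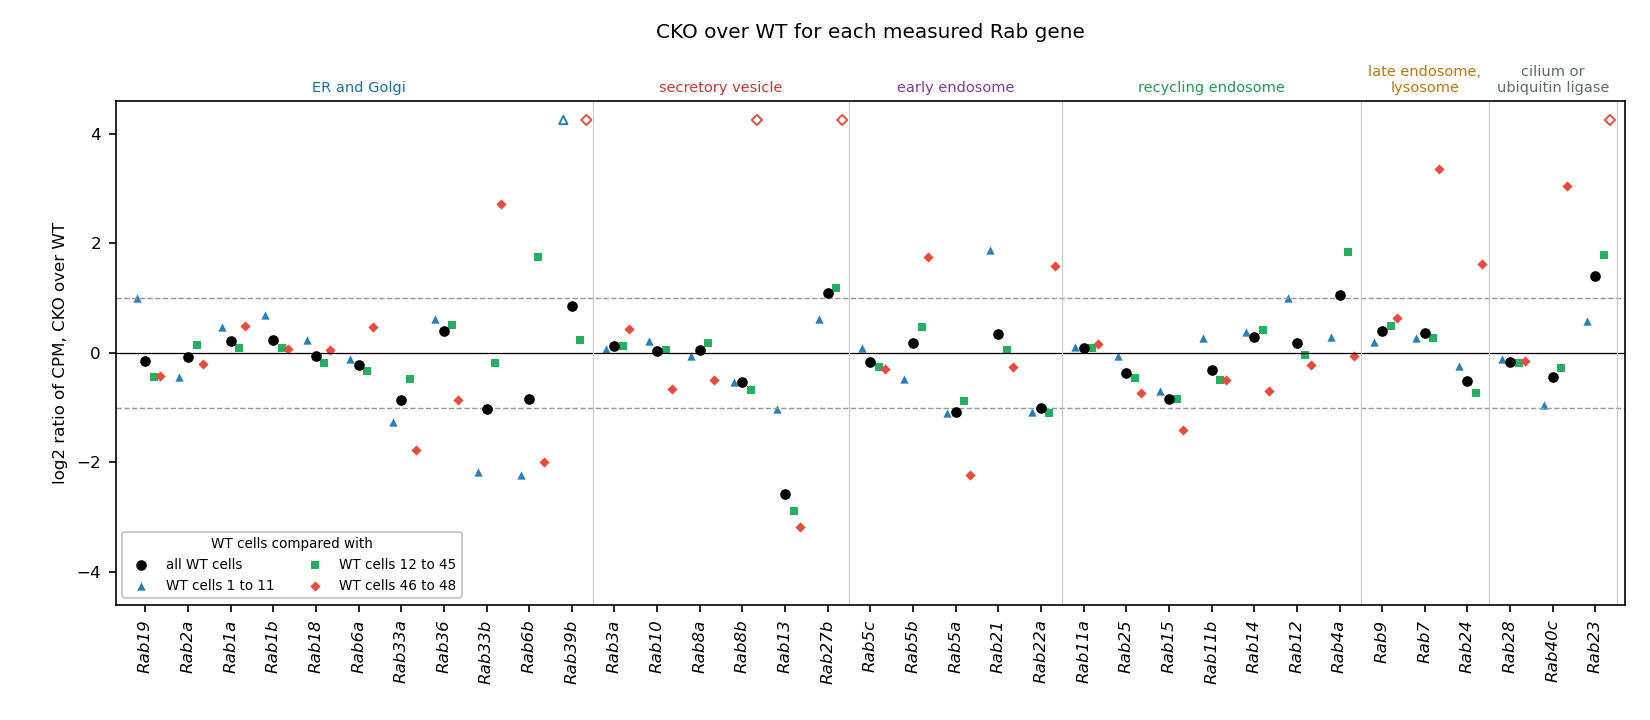
Log2 ratio of CPM, CKO over WT, for the 35 measured Rab genes by route. Black circles compare with all 48 WT cells, and coloured symbols with the WT runs 1 to 11 (triangles), 12 to 45 (squares) and 46 to 48 (diamonds). Open symbols at the upper edge are bounds for genes without a count in that run, and dashed lines mark 2-fold. Rab13 and Rab15 lie below 0 with every set of WT cells, while Rab7, Rab22a and Rab33b jump upward against the 3 cells of the last run.

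The WT runs moved many of these values. Against WT cells 1 to 11, 14 of 41 measured Rab genes were at least 2-fold apart (40.1% of all measured genes), with a median log2 ratio of -0.06. Against cells 12 to 45 it was 6 of 35 (32.9%), with a median of 0.05, and against cells 46 to 48, which are only 3 cells, 18 of 38 (55.1%), with a median of -0.18. Between the cells with the Xist pattern, which in WT are mostly cells of the first run, it was 14 of 39 (43.4%), with a median of -0.06. Of the 35 genes measured against all WT cells, 15 lay on the same side of 0 against each run. The share of all measured genes that did so was not computed. The 15 were Rab1a, Rab1b, Rab3a, Rab7, Rab9, Rab11a, Rab23, Rab27b and Rab39b, higher in CKO, and Rab5a, Rab13, Rab15, Rab25, Rab28 and Rab33a, lower. Rab23, Rab27b and Rab39b had no count in WT cells 46 to 48, nor Rab39b in cells 1 to 11, so those ratios are bounds. In CKO, the level of Rab39b came almost wholly from cell 2, at 107.84 CPM. Of the 15, Rab11a (-0.13), Rab27b (-1.44) and Rab28 (0.06) lay on the other side among the Xist-pattern cells. The other 20 measured genes changed side between runs. Rab9, Rab33a and Rab39b lie on the X chromosome, and the share of Xist-pattern cells differs between the groups. Its part in their ratios was not tested.

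By route, the ER and Golgi members had 4 genes higher and 7 lower (median log2 ratio -0.07), and the recycling members 4 higher and 3 lower (0.09). The secretory members had 4 higher and 2 lower (0.05), and the early endosome members 2 higher and 3 lower (-0.18). Of the 3 late endosome and lysosome members, Rab9 (0.40) and Rab7 (0.35) were higher and Rab24 (-0.52) was lower. Rab7 had 85.5 CPM in WT and 109 CPM in CKO (log2 interval 0.33 to 0.38), and counts in 41 of 48 and 16 of 17 cells. The 3 cells of the last WT run had 10.7 CPM of it, from 1 cell.

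The genes that load, unload and carry Rab proteins were read from 5 lists. In all, 118 of 149 listed genes were measured, and 1 of them, Ccz1, reached 75% of cell pairs with CKO higher, a share near the 0.756% of all measured genes. None did with WT higher, beside 0.775%. The highest levels belonged to Tbc1d7, a TBC-domain protein of the TSC complex, with 360 CPM per kb of exon, and Rab3ip, the exchange factor of Rab8, with 208 CPM per kb. Tbc1d7 ranged from 726 to 3987 CPM in WT cells (median 1492) and from 760 to 2154 CPM in CKO cells (median 1355), so that it had counts in every cell. Rab3ip ranged from 113 to 1542 CPM (median 623) and from 141 to 1266 CPM (median 496). Its summed levels of 733 and 585 CPM gave a log2 ratio of -0.33, below 0 against each WT run.

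Among prenylation, escort and GDI genes, 10 of 10 were measured, 6 higher and 4 lower in CKO, with a median log2 ratio of 0.23. Rabac1, which binds prenylated Rab proteins, had 189 CPM per kb of exon (271 CPM in WT and 304 CPM in CKO). Praf2, a relative of Rabac1, had 8.07 CPM in WT and 26.3 CPM in CKO (log2 ratio 1.70), with counts in 11 of 48 and 9 of 17 cells. Praf2 has a near copy in the genome (Gm18032), so its count is uncertain. The escort proteins Chml (9.44 and 19.3 CPM, log2 ratio 1.03) and Chm (21.9 and 37.2 CPM, 0.77) present new Rab proteins to the prenylating enzyme, and came from 10 and 23 WT cells and 4 and 7 CKO cells.

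Of 38 exchange factor genes 30 were measured, 15 higher and 15 lower, with a median of -0.06. Trappc3, a core subunit of the TRAPP complex that activates Rab1, had 146 CPM per kb of exon, with 234 CPM in WT and 272 CPM in CKO. Mon1b, which with Ccz1 activates Rab7, had 7.53 and 17.5 CPM (log2 ratio 1.22). Ccz1, named here because of its values, had 210 CPM in WT (cells from 0 to 662, median 184) and 404 CPM in CKO (106 to 1058, median 364). The CKO cell was higher in 76.2% of pairs, and the log2 ratio of 0.94 was 1.19, 0.92 and 0.35 against the 3 WT runs. Rab3il1, a relative of Rab3ip, had counts in 8 WT cells, at 12.8 CPM in all, and none in CKO, so that its ratio is only a bound, at or below -9.73 with 3 counts set for the CKO group.

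**Figure D5:**
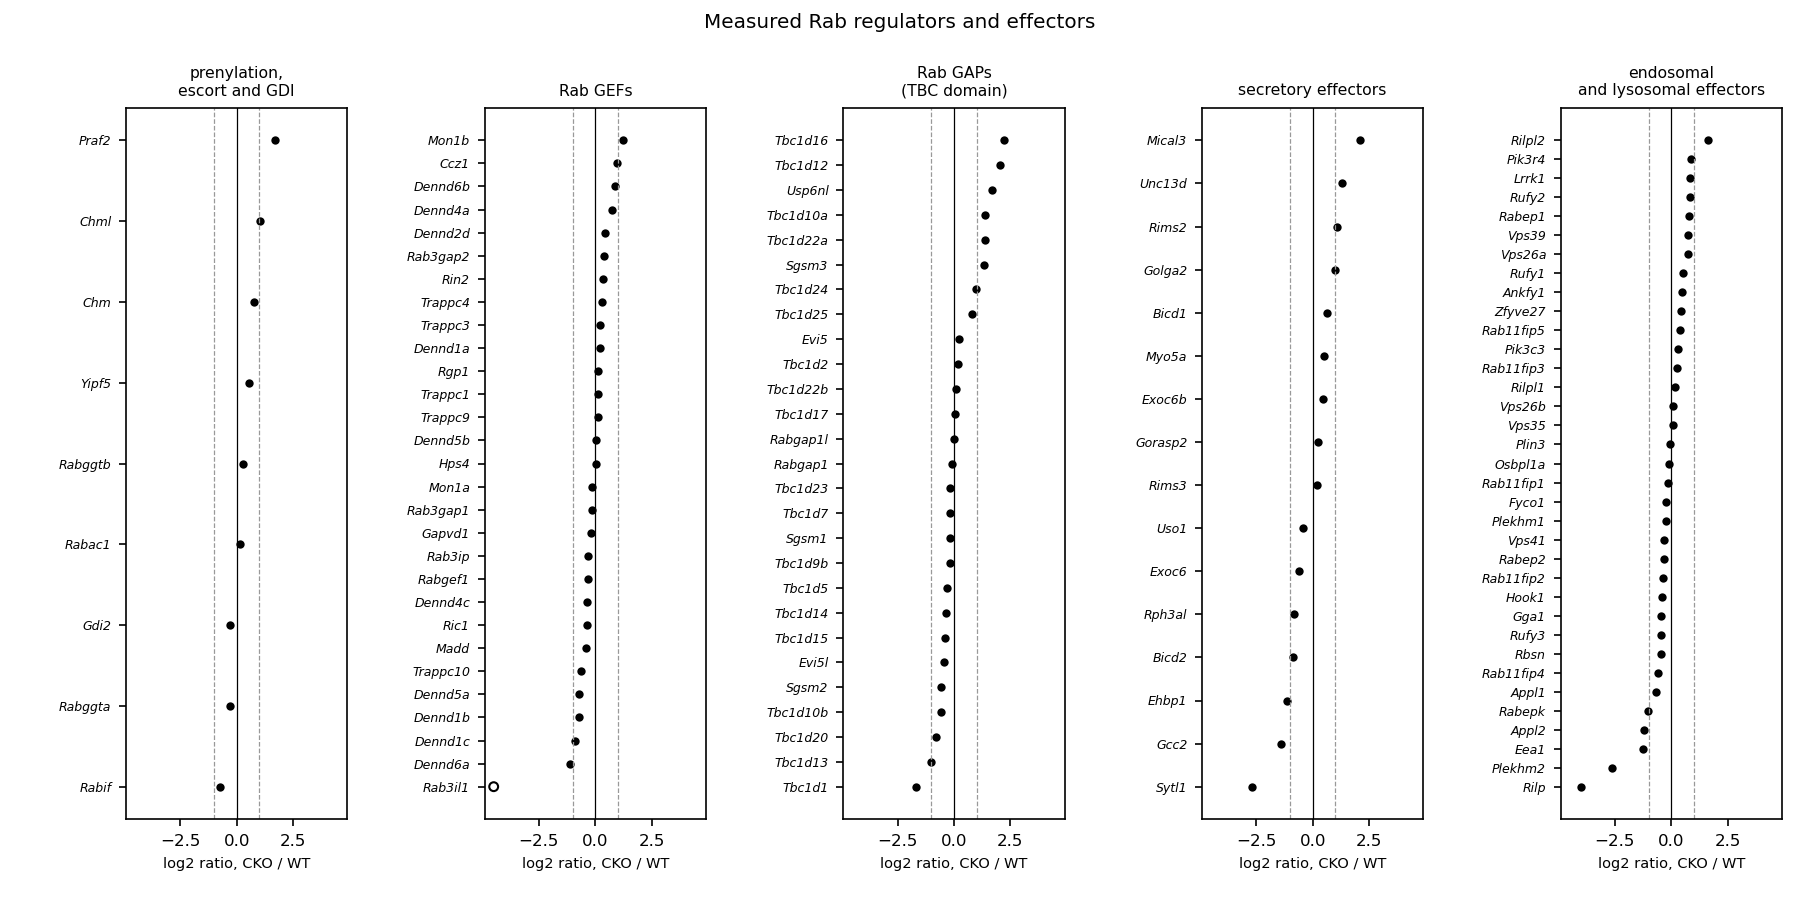
Log2 ratio of CPM, CKO over WT, for measured members of 5 lists of Rab regulators and effectors, each point 1 gene and 2 genes left out. Dashed lines mark 2-fold and the open circle of Rab3il1 is a bound drawn at the edge, its value being -9.73. Points of each list fall on both sides of 0.

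Of 33 TBC-domain GAP genes 27 were measured, 12 higher and 15 lower, with a median of -0.11. Tbc1d16 (2.22 and 10.3 CPM, log2 ratio 2.21), Tbc1d12 (3.66 and 14.9 CPM, 2.03) and Tbc1d1 (27.7 and 8.65 CPM, -1.68) had the ratios furthest from 0. Tbc1d1, a GAP known from glucose transporter traffic, had counts in 28 of 48 WT and 5 of 17 CKO cells. Tbc1d15, a GAP of Rab7, had 118 and 88.3 CPM.

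Of 32 secretory effectors 16 were measured, 9 higher and 7 lower, with a median of 0.21. Effectors of Rab27 were mostly below the threshold. Sytl5 and Mlph had no count, Exph5 had 1 count, Sytl4 had 3, Myrip had 2 in WT and 16 in CKO cells, and Sytl2 (1.71 CPM in WT) and Sytl3 (0.232 CPM) each had counts in 1 WT cell. Sytl1 was measured, with 20.3 CPM from 16 WT cells and 3.13 CPM from 1 CKO cell (log2 ratio -2.70). Of the Rim genes of release sites, named after their values were seen, Rims3 had 51.8 and 59.3 CPM, Rims2 was also measured and Rims1 had no count. Gcc2, a Golgi tether, had 52.4 and 19.8 CPM (-1.40), and Mical3 2.76 and 11.7 CPM (2.08). Gorasp2 of the Golgi stack had the highest level of this list, at 56.7 CPM per kb of exon, and Exoc6, a Rab11 effector in the exocyst, had 17.9 CPM per kb.

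Of 37 endosomal and lysosomal effector names 36 are in the table and 35 were measured, 16 higher and 19 lower, with a median of -0.11. Osbpl1a, a Rab7 effector that senses cholesterol, had 57.7 CPM per kb of exon and 466 and 432 CPM. Vps41, a subunit of the HOPS tether of lysosomes, had 171 and 135 CPM. Rilp, which links Rab7 to dynein, had 6.16 and 0.390 CPM (log2 ratio -3.98) from 10 and 2 cells, and Plekhm2 12.6 and 2.02 CPM (-2.65). Rilpl2 had 5.39 and 16.4 CPM (1.61).

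The 24 Rab genes that were not measured divide into 4 without a count (Rab9b, Rab17, Rab20 and Rab42) and 20 with one. The nearest to the threshold from below were Rab2b with 4.75 CPM, Rab3b with 3.91 CPM and Rab35 with 3.56 CPM in the higher group, and the nearest from above Rab39b with 6.19 CPM, Rab6b with 9.82 CPM and Rab40c with 12.6 CPM. Rab35, a Rab of fast recycling at the plasma membrane, had counts in 8 WT and 4 CKO cells. Rab32, Rab34, Rab37 and Rab44 each had at most 3 counts. All 167 counts of Rab30 were in WT cell 10.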

How the data were processed

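The authors deposited whole-number counts per gene for 65 cells, per the labels made with the Smart-Seq HT kit (full-length cDNA, no molecular identifiers) and tagmentation. Per the submitters' processing notes, HISAT2 2.2.1, StringTie 2.2.1, featureCounts 2.0.1 and the mm10 build were used; which tool gave the counts, which annotation and strand setting, and whether a filter was used, is not given in the sources used here. All columns matched a sample title. No pair of cells held identical columns.

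Groups follow the labels. As these name no animal, each genotype is 1 sample and no test was run. CPM were computed from summed counts with exact Poisson intervals, ratios with exact conditional (Clopper-Pearson) intervals and shares of cells with exact binomial intervals, all at 95%. Intervals and the floor of 3 counts cover counting error only, since reads without identifiers are not independent molecules. No cell was removed. Lengths, positions and coding sequences came from GENCODE M21, which holds 53292 of 55292 symbols (96.4%); 20 Rab genes overlap exons of another gene, 15 of them on the other strand, and 7 (Rab2a, Rab5b, Rab6a, Rab7, Rab8b, Rab9 and Rab11b) have near copies of at least 250 bases at 95% identity (blastn 2.17.0) whose own level was at most 4.42 CPM.

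Named were the 15 highest genes per length, the 2 highest of each route, those 2-fold apart, those without a count, a set of 15 well-known members, and of each regulator list the 3 with the ratio furthest from 0 and the 2 highest. The values of 2 genes of these lists are not reported here. Members were taken by symbol and not by value, but members and lists were chosen with earlier results of these data known. The code was tested on simulated data. Alternatives were the mean or median of cells, TMM (edgeR 4.0.16) and median-of-ratios (DESeq2 1.42.0) factors, a reduced total, thinning, cell subsets, other filters and lengths, and leaving out each cell.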

Additional observations from a re-analysis of the deposited data

How the results depend on the processing

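No paired analysis was possible because a cell's number is no more than its name and the comparison has no test. The median log2 ratio over the Rab genes lay between -0.18 and 0.12 over 16 settings, 11 of them below 0. The scaling alternatives shifted all ratios by -0.03. Under the median of per-cell CPM, 22 Rab genes were measured, 10 were higher and 2 were at least 2-fold apart. Among members without exon overlap, 22 were measured, 10 were lower and 4 were 2-fold apart. The count of 7 of 35 genes at least 2-fold apart became 14 of 39 with the Xist pattern. With WT cells 1 to 11 and 46 to 48 as the reference it became 14 of 41 and 18 of 38. It was 16 of 48 with a filter of 1 CPM, 4 of 28 with 20 CPM and 17 of 49 with no filter. The shares of all genes under these filters are not given here. At a fold of 1.5 it was 11 of 35, beside 5204 of the 10842 measured genes of the table. Leaving out each cell gave 3 to 8 Rab genes at least 2-fold apart. The median of the GAP list became 0.85 with the Xist pattern and 1.53 with the last WT run. Of 347 ratios recomputed for 30 named Rab genes, 6 changed the sign of a gene called 2-fold apart: Rab4a was -0.059 against WT cells 46 to 48 and -0.33 to 1.33 over omissions of a cell, Rab22a was 1.59 and Rab33b 2.73 against WT cells 46 to 48, and Rab27b was -1.44 among Xist-pattern cells and -1.03 to 1.45 over omissions. The causes were not tested. With all cells thinned to 7458126 counts, 7 genes were 2-fold apart. Counts of 1 to 3 in a cell limit what can be said of the rarest members.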

Other observations

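Some relatives of the Rab family carry other symbols. Rabl6 had 110 CPM in WT and 99.1 CPM in CKO cells, and counts in 41 of 48 and 17 of 17 cells. Ift27 and Ift22, Rab-like subunits of the intraflagellar transport complex that builds cilia, had 101 and 77.6 CPM, and 41.1 and 52.7 CPM. Rabl2 had 9.43 and 14.3 CPM from 12 and 4 cells, Rabl3 had 1.77 and 0.961 CPM, and Rasef had no count.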
